A study of Homo sapiens with 8 samples.

Results

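Notch receptors, ligands and targets were followed in HuCCT1, an established cell line of human intrahepatic cholangiocarcinoma. The set was chosen by gene name and holds 10 genes, the ligands JAG1, JAG2 and DLL1, the receptors NOTCH1, NOTCH2 and NOTCH3, and the targets HES1, HES4, HEY1 and NRARP. All 10 were among the 34809 gene names on the array, and 9 of them were among the 20450 genes that were bright enough to be tested. The study knocked down BEX2 in HuCCT1 cells with short hairpin RNA (shRNA) from retroviral vectors, to ask what this gene does in dormant cancer stem cells. RNA was hybridised to 8 single-colour Agilent expression arrays, 2 for each of 4 vectors. shControl and shNontarget, which carry no BEX2 hairpin, gave the 4 control arrays, and shBEX2-1 and shBEX2-2 gave the 4 BEX2-knockdown arrays. The study describes its control cells as expressing an shRNA against luciferase, without saying which of the control vectors that was. Its methods list the target sequences of both BEX2 hairpins as reverse complements of each other but for their ends, so the 2 sublines address one stretch of the BEX2 transcript. The sources are silent on whether both arrays of a vector had their own culture, so that p-values measure the spread between these arrays, which may be technical. In such bulk RNA, fewer cells with a transcript and less of it per cell cannot be told apart.

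Notch receptors are membrane proteins that are activated by Jagged and Delta-like ligands on neighbouring cells. After ligand binding, ADAM proteases and then γ-secretase cut the receptor, and its intracellular part enters the nucleus, joins the DNA-binding protein RBPJ and switches on target genes, among them the HES and HEY repressors. In the liver this pathway, with JAG1 and NOTCH2 as its best-known pair, is needed for bile duct formation, and it is often active in cholangiocarcinoma.

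JAG1, HES1 and HEY1 fell in BEX2-knockdown cells, while none of NOTCH1, NOTCH2 and NOTCH3 passed the test. Mean level was 4.26-fold lower for HES1, 3.74-fold lower for HEY1 and 2.14-fold lower for JAG1 (4 against 4 arrays). For HES1 and HEY1 these sizes rest on dim readings in BEX2-knockdown cells, and they were smaller after another background correction. In limma with Benjamini-Hochberg adjustment 3 of the 9 tested genes were called, where 12.9% of all tested genes were called. All 3 were lower, against 6.26% of all genes called lower and 6.68% called higher. Of the 9 genes, only these 3 had BEX2-knockdown and control arrays that did not overlap, as was so in 22.1% of all genes. The median log2 fold change of the 9 genes was -0.27 and that of all tested genes 0.03.

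Levels are given as log2 of the processed intensity relative to the 75th percentile of the array, so that 0 is the level of that percentile and values of different genes, which come from different probes, are not set against each other. Each array had 58717 spots that were not controls, and 59.8% to 64.6% of them were well above background. The 75th percentile itself was at an intensity of 667 to 838 on control arrays and of 441 to 631 on BEX2-knockdown arrays, so that all of the latter were dimmer before scaling, and the part of this in the results was not tested. All arrays lay on 1 slide with the control arrays in one row and the BEX2-knockdown arrays in the other, so that slide row and knockdown cannot be told apart. The shNontarget arrays stood apart. They differed from each other by a median of 0.71 on the log2 scale, against 0.11 to 0.15 in the other vectors, and 34.9% of genes differed by more than 1 between them. BEX2 itself read -3.36 and -3.91 with shControl, -2.70 and -3.77 with shNontarget, -5.21 and -5.54 with shBEX2-1 and -4.92 and -4.60 with shBEX2-2, and its probe was not well above background on the shBEX2-1 arrays. With 2 of the 4 BEX2-knockdown arrays above background, it fell by 1.63 ± 0.32 (log2, SE; adjusted p = 0.0116, limma), and missed the threshold with shNontarget as the only control (-1.83, adjusted p = 0.0787, limma). By subline the fitted level of BEX2 was 3.83-fold lower with shBEX2-1, at -1.94 ± 0.37 (log2, SE, adjusted p = 0.0335, limma). The size of this fall is uncertain, as the probe was not well above background there. With shBEX2-2 the difference of BEX2 was -1.32 ± 0.37 and did not pass (adjusted p = 0.0812, limma). The biliary epithelial markers KRT7, KRT19, EPCAM, CDH1 and SOX9 were well above background on all 8 arrays and the hepatocyte markers ALB and TTR on none. The other hepatocyte markers were detected in part, APOA1 on 6 arrays and FGB on 1. Of the markers of other cells, 2 of 3 for endothelium, 2 of 4 for fibroblasts and 1 of 3 for leukocytes were also well above background on all 8 arrays, while PECAM1 of endothelium and COL1A2 of fibroblasts were on none. No marker that could be tested was called between the groups.

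**Figure D1:**
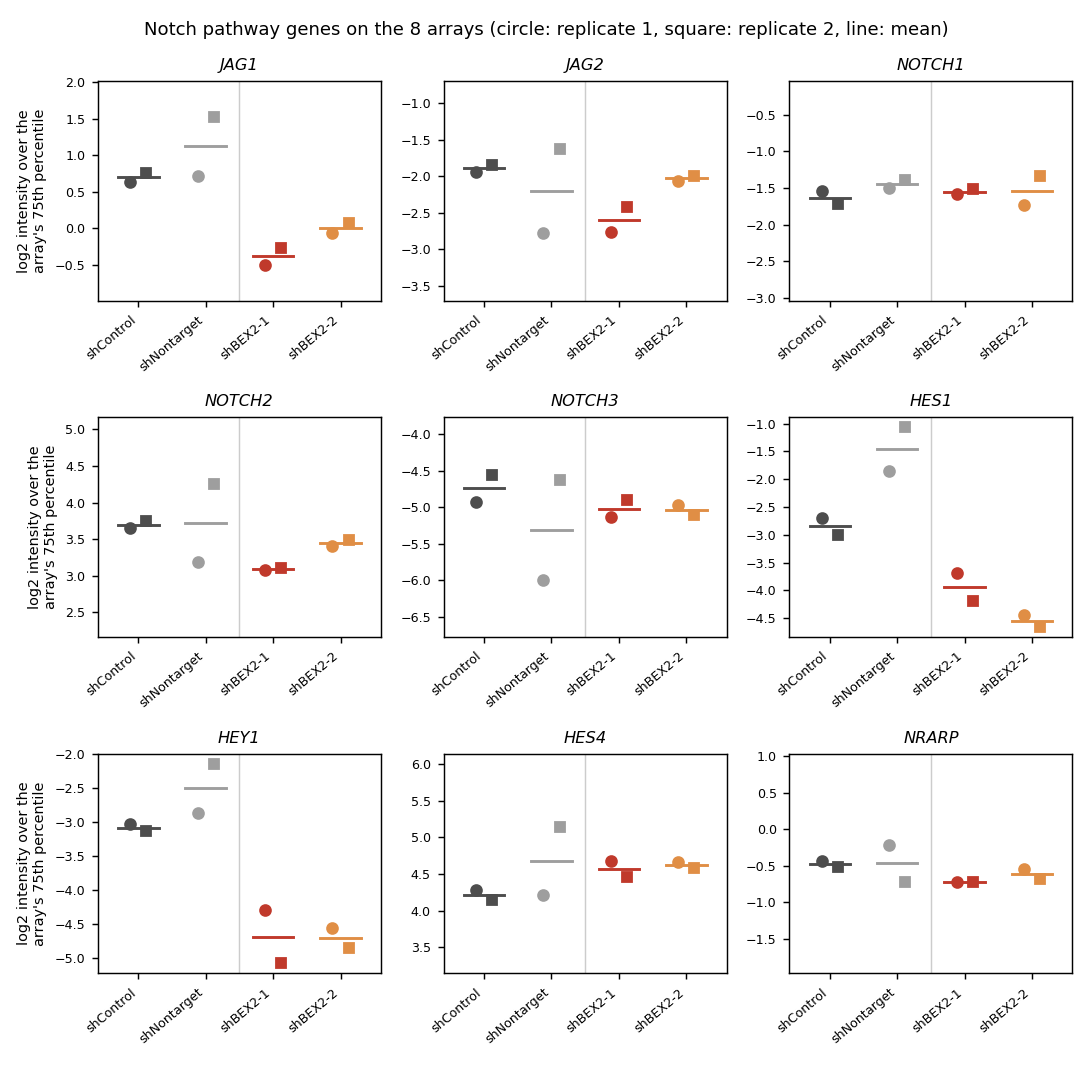
Level of 9 Notch pathway genes (log2 intensity over the 75th percentile of the array) on each array, by vector. Circles are replicate 1, squares replicate 2 and lines the mean of a vector. The vertical line separates control from BEX2-knockdown cells, which do not overlap for JAG1, HES1 and HEY1. Panels differ in their vertical range.

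JAG1, the Jagged ligand whose loss causes Alagille syndrome with too few bile ducts, read 0.63 and 0.76 with shControl, 0.71 and 1.53 with shNontarget, -0.50 and -0.26 with shBEX2-1 and -0.07 and 0.07 with shBEX2-2. All BEX2-knockdown arrays were below all control arrays, and the second shNontarget array was the highest. The log2 difference between BEX2-knockdown and control cells was -1.10 ± 0.22 (SE, 95% confidence interval -1.59 to -0.61; adjusted p = 0.0125, limma). Each subline was then set against the mean of both control vectors, in comparisons that share the control arrays. JAG1 fell by 1.29 ± 0.24 in shBEX2-1 cells (adjusted p = 0.0305, limma), and with shBEX2-2 the difference of -0.91 ± 0.24 did not pass (adjusted p = 0.0683, limma). Between the groups JAG1 passed under all alternatives but one, shNontarget as the only control, where the difference was -1.31 (adjusted p = 0.0669, limma).

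JAG2, the other Jagged ligand, was read from 10 spots an array, whose standard deviation within an array lay between 0.06 and 0.18. It read -1.94 and -1.84 with shControl, -2.77 and -1.63 with shNontarget, -2.77 and -2.42 with shBEX2-1 and -2.06 and -1.99 with shBEX2-2. The groups overlapped, and the shNontarget arrays lay farther apart than any other pair. The difference between BEX2-knockdown and control cells was -0.27 ± 0.28 (log2, SE; 95% confidence interval -0.89 to 0.36; adjusted p = 0.588, limma), which leaves room for a fall as large as 0.89. DLL1, a Delta-like ligand, stayed too close to background on all 8 arrays to count as detected. Its intensity of 3.03 to 13.4 gives no level to compare, and it was not tested.

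The receptors of the set gave no call. NOTCH2, the receptor that acts with JAG1 in bile duct formation, read 3.65 and 3.75 with shControl, 3.19 and 4.26 with shNontarget, 3.07 and 3.11 with shBEX2-1 and 3.41 and 3.49 with shBEX2-2. The shNontarget arrays spanned the range of all the others but the lowest pair, from shBEX2-1, and the groups overlapped. The difference was -0.44 ± 0.22 (log2, SE; 95% confidence interval -0.94 to 0.06; adjusted p = 0.236, limma). With shControl as the only control it was -0.43 and passed (adjusted p = 0.0465, limma), and without the first shNontarget array it was -0.61 and passed as well (adjusted p = 0.0410).

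NOTCH1, the founding human receptor of the family, gave similar values with all vectors. It read -1.54 and -1.72 with shControl, -1.50 and -1.39 with shNontarget, -1.58 and -1.52 with shBEX2-1 and -1.74 and -1.34 with shBEX2-2. Its difference of -0.01 ± 0.14 had a 95% confidence interval of -0.32 to 0.31 (adjusted p = 0.982, limma), the narrowest among the receptors. NOTCH3, a receptor best known from vascular smooth muscle, was dim, with an intensity of at most 36.1, and well above background on 7 arrays. It read -4.93 and -4.56 with shControl, -5.99 and -4.63 with shNontarget, -5.14 and -4.90 with shBEX2-1 and -4.97 and -5.11 with shBEX2-2. The lowest and nearly the highest of its values came from the same vector, shNontarget. Its 95% confidence interval of -0.76 to 0.75 covers changes in both directions of more than 1.5-fold (adjusted p = 0.996, limma).

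NOTCH1 and NOTCH2 each had another probe. The probes of a pair differ in position, in brightness and in their number of spots, and the cause of differences between their readings was not tested. The probes below lie in coding sequence and are printed 5′ to 3′ on the transcript strand, with the stop codon of NOTCH1 in capitals. That of NOTCH1 is the brighter of its pair and lies at chr9:139390523-139390582 on the minus strand of hg19, the build of the array's annotation. That of NOTCH2 is the dimmer of its pair and lies at chr1:120539807-120539866 on the minus strand, in a 5′ part of the gene that NOTCH2NL paralogs share, so that its reading may include theirs.
NOTCH1 coding probe: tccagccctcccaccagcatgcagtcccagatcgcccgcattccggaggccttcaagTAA
NOTCH2 coding probe: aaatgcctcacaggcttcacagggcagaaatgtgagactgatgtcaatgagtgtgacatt

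The NOTCH2 probes disagreed. The coding probe read 1.26 and 1.22 with shControl, 1.39 and 1.17 with shNontarget, 1.15 and 1.27 with shBEX2-1 and up to 1.32 with shBEX2-2, and all 8 arrays lay close together. Its difference between BEX2-knockdown and control cells was -0.03 ± 0.11 (log2, SE), against -0.44 ± 0.22 for the brighter probe, which lies at the 3′ end of the gene at chr1:120454858-120454917. Between the shNontarget arrays, replicate 2 was higher by 1.06 for the 3′ probe and lower for the coding probe, at -0.23. The 3′ probe of NOTCH1 at chr9:139389764-139389823, with 10 spots, was above background on 5 arrays. It differed by -0.25 ± 0.35 (log2, SE) between the groups and by 1.46 between the shNontarget arrays, where the coding probe differed by 0.10.

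**Figure D2:**
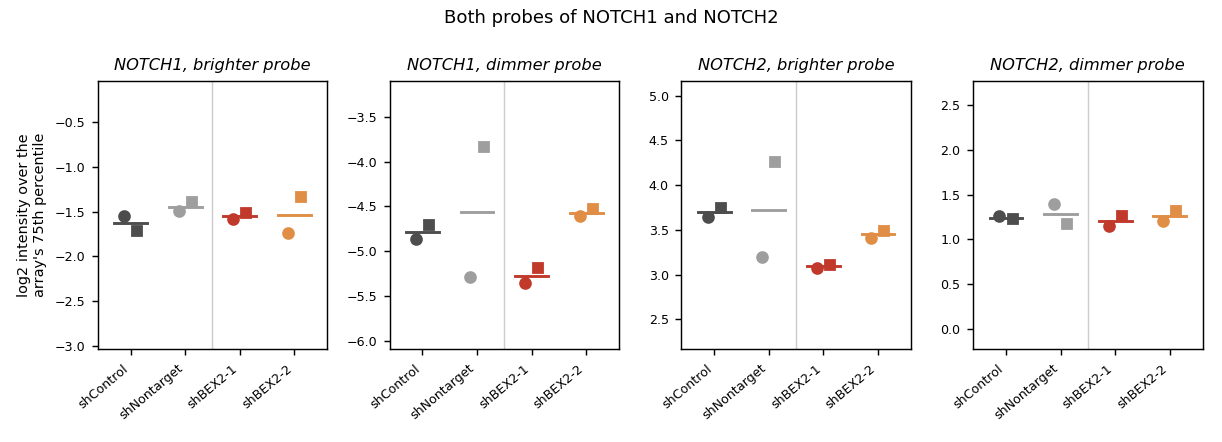
Level of both probes of NOTCH1 and of NOTCH2 (log2 intensity over the 75th percentile of the array) on each array, by vector, with circles for replicate 1, squares for replicate 2 and lines for means. The shNontarget arrays lie far apart on the dimmer NOTCH1 probe and the brighter NOTCH2 probe, which are the 3′ probes, and close together on the coding probes.

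Among the targets, HES1 and HEY1 fell. HES1, a repressor of transcription and the classical Notch target, read -2.69 and -3.00 with shControl, -1.84 and -1.06 with shNontarget, -3.68 and -4.18 with shBEX2-1 and -4.43 and -4.66 with shBEX2-2. The intensity behind these levels was 105 to 319 on control arrays and 25.1 to 34.4 on BEX2-knockdown arrays, all well above background. The vectors ranked shNontarget, shControl, shBEX2-1 and shBEX2-2 from high to low, and none of these neighbours overlapped. Such a gap was common at 2 arrays a vector, with 26.5% of all genes apart between shNontarget and shControl, 72.4% between shControl and shBEX2-1 and 60.1% between the sublines. The difference between BEX2-knockdown and control cells was -2.09 ± 0.41 (log2, SE; 95% confidence interval -3.03 to -1.16; adjusted p = 0.0123, limma). HES1 fell by 1.79 ± 0.29 in shBEX2-1 cells (adjusted p = 0.0212, limma) and fell by 2.40 ± 0.29 in shBEX2-2 cells (adjusted p = 0.00688, limma), both against the same control arrays. After normexp background correction, which adds an offset to all intensities, the difference between the groups was -0.99 for HES1 (adjusted p = 0.0504, limma) and -0.69 for HEY1 (adjusted p = 0.0300).

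The size of the fall of HES1 depended on the control vector. HES1 was 2.62-fold higher with shNontarget than with shControl (log2 1.39 ± 0.33, SE; 95% confidence interval 0.59 to 2.19), which did not pass after Benjamini-Hochberg adjustment (adjusted p = 0.407, limma). Against shControl alone, HES1 differed by -1.09 with shBEX2-1 (adjusted p = 0.134, limma) and by -1.70 with shBEX2-2 (adjusted p = 0.0344), where 5.33% and 7.43% of all genes were called. Against shNontarget alone, it differed by -2.48 with shBEX2-1 (adjusted p = 0.0246, limma) and by -3.09 with shBEX2-2 (adjusted p = 0.00954), where 3.15% and 6.18% were called. HES1 was thus lower by more than 1 on the log2 scale in each subline against each control vector, and the control vectors themselves differed by more than the smallest of these differences.

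The HES1 probe lies in coding sequence at chr3:193854404-193854463 of hg19, on the plus strand. It is shown here, 5′ to 3′ and with no base marked, since HES1 is the classical target of the pathway and was called.
HES1 probe: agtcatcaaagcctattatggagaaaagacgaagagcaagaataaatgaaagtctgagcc

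HEY1, a repressor related to HES1, read -3.04 and -3.13 with shControl, -2.88 and -2.14 with shNontarget, -4.30 and -5.08 with shBEX2-1 and -4.57 and -4.85 with shBEX2-2. Its intensity was 89.0 to 151 on control arrays and 15.2 to 26.0 on BEX2-knockdown arrays, and the groups were far apart. All arrays were well above background, but at such low intensity the size of the fall depended on the background correction, with -0.69 after normexp. In the main fit the difference was -1.90 ± 0.27 (log2, SE; 95% confidence interval -2.52 to -1.29; adjusted p = 0.00327, limma). It was nearly equal in the sublines, at -1.89 ± 0.32 with shBEX2-1 (adjusted p = 0.0247, limma) and -1.91 ± 0.32 with shBEX2-2 (adjusted p = 0.0182). Against shControl alone it was -1.61 and -1.63 (adjusted p = 0.0666 and 0.0538, limma), and against shNontarget alone -2.18 and -2.20 (adjusted p = 0.0386 and 0.0271). HEY1 was also higher with shNontarget than with shControl, by 0.58 ± 0.37, which did not pass (adjusted p = 0.854, limma).

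**Figure D3:**
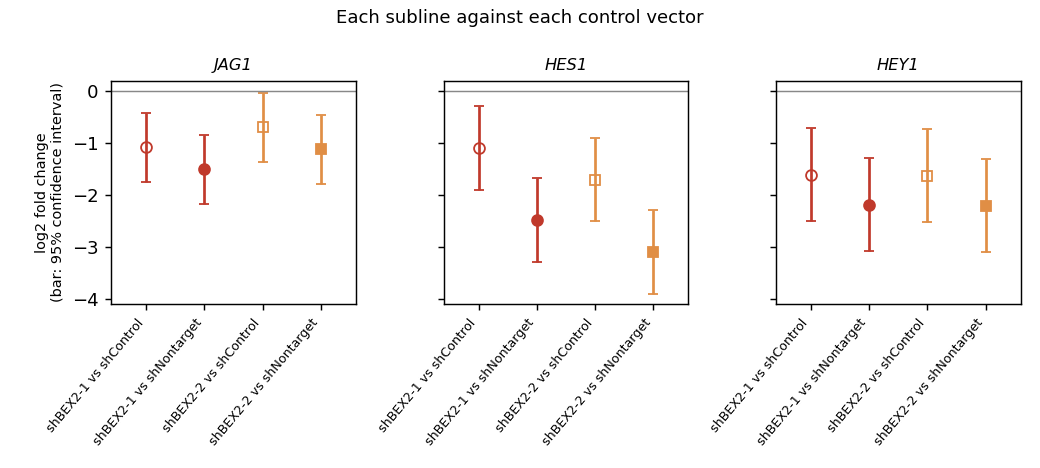
Log2 fold change of JAG1, HES1 and HEY1 in each BEX2-knockdown subline against each control vector (2 against 2 arrays, spread shared by all 8 arrays), with 95% confidence intervals. Open symbols are against shControl and filled symbols against shNontarget. All values are below 0, and those of HES1 run from -1.09 to -3.09.

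HES4, a relative of HES1 in humans, was not called. It read 4.29 and 4.14 with shControl, 4.21 and 5.15 with shNontarget, 4.67 and 4.45 with shBEX2-1 and 4.66 and 4.58 with shBEX2-2. The second shNontarget array was the highest of all, and the other control arrays lay below all BEX2-knockdown arrays. The difference was 0.15 ± 0.22 (log2, SE; 95% confidence interval -0.36 to 0.65; adjusted p = 0.725, limma), and with shControl as the only control or without the second shNontarget array 0.38 (adjusted p = 0.0208 and 0.0347, limma). With shNontarget as the only control it was -0.085. NRARP, a target that feeds back to restrain Notch signalling, read -0.44 and -0.52 with shControl, -0.21 and -0.71 with shNontarget, -0.72 and -0.72 with shBEX2-1 and -0.55 and -0.68 with shBEX2-2. The groups overlapped through the second shNontarget array, and the difference was -0.20 ± 0.14 (log2, SE; 95% confidence interval -0.50 to 0.11; adjusted p = 0.402, limma). These values come from the probe nearer the 3′ end, as the other probe of NRARP was above background on no array. The targets therefore did not move as a group, with HES1 and HEY1 lower and HES4 and NRARP not called.

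The promoters of HES1 and HES4 are shown because both hold the core motif of RBPJ, the DNA-binding protein of the pathway. No RefSeq promoter was found for HEY1 and DLL1, which were therefore not searched. RefSeq promoters (GRCh38.p14, from 250 bases before the start of the transcript to 50 after it) were found for the other 8 of the 10 genes. The letters TGGGAA, or TTCCCA on the other strand, occurred in 2 of these 8, HES1 and HES4, and in 24% of all 35116 promoters of the same length. HES1 held the motif 2 times, with first bases at -84 and -70, and 3.8% of promoters held at least 2 matches. HES4 held it once, at -76. The 120 bases before the start are printed 5′ to 3′ in the direction of transcription, with TGGGAA in capitals, from chr3:194136028-194136147 (plus strand) for HES1 and chr1:1000098-1000217 (minus strand) for HES4.
HES1 promoter: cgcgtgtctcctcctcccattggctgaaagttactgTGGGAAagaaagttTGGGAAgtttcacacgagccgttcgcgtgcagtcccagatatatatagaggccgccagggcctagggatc
HES4 promoter: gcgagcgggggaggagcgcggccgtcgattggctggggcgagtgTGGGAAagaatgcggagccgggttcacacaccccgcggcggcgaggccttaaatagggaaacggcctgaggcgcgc
The longest run of bases that both stretches share, tgtgggaaagaa, has 12 bases and contains the motif, at -86 in HES1 and at -78 in HES4. Its first 8 letters, TGTGGGAA, were found on either strand in 1.71% of all promoters. A match describes these letters only, and binding was not tested.

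**Figure D4:**
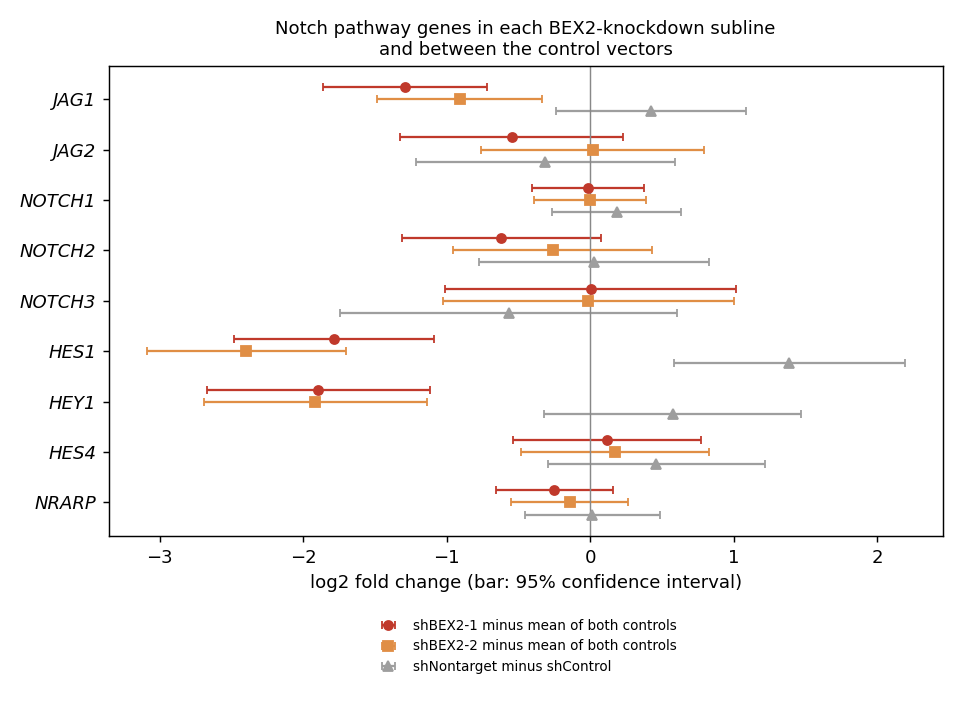
Log2 fold change of the 9 tested Notch genes with 95% confidence intervals, for shBEX2-1 (circles) and shBEX2-2 (squares) against the mean of both control vectors and for shNontarget against shControl (triangles). HES1 and HEY1 lie between -1.79 and -2.40 in both sublines, and HES1 is the only gene whose interval between the control vectors leaves out 0.

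Counted by subline, 3 of the 9 tested genes were called in shBEX2-1 cells, where 7.03% of all genes were called, and 2 of the 9 in shBEX2-2 cells, where 9.67% were. All of them were lower, against 3.63% and 4.81% of all genes called lower and 3.4% and 4.86% called higher. These calls rest on the shared spread and on single arrays. With shBEX2-1 no gene of the set stayed called when a shControl, shBEX2-1 or shBEX2-2 array was left out, and the share of all genes called was then no more than 0.875%. When an shNontarget array was left out, 5 (without replicate 1) or 6 (without replicate 2) were called, and over 50% of all genes with them, at 52.9% and 52.6%. The array that is left of a vector is then taken to vary like those of the other vectors. With shBEX2-2 the count was 0 without either shBEX2-2 array (0% of all genes), 1 without either shControl array (2.32% and 2.07%), and 4 and 5 without the first and the second shNontarget array (51.5% and 54.5%). The counts of the set thus moved with those of all genes. In contrast, JAG1, HES1 and HEY1 stayed below an adjusted p of 0.05 in the comparison of all BEX2-knockdown with all control arrays whichever array was left out, at no more than 0.0427, 0.0457 and 0.0164 (limma).

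No gene of the set differed between shNontarget and shControl after adjustment, as was so for all 20450 genes (0%), although limma gave 1567 genes, or 7.66%, an unadjusted p under 0.05, HES1 among them. No gene of the set differed between shBEX2-1 and shBEX2-2 either, where 2 genes, or 0.00978%, were called and 7.29% had an unadjusted p under 0.05 in limma. The difference of shBEX2-1 from shBEX2-2 was -0.38 ± 0.27 for JAG1 (log2, SE; 95% confidence interval -1.04 to 0.28) and -0.56 ± 0.37 for JAG2 (-1.47 to 0.34). For HES1 it had the other sign, 0.61 ± 0.33 (-0.19 to 1.41). The spread shared by all arrays includes that of the shNontarget pair, and in a fit of the 4 BEX2-knockdown arrays alone JAG2 and NOTCH2 were called, among 13.4% of all genes. JAG1, JAG2 and NOTCH2 were called between the sublines when either shNontarget array was left out (14.4% and 14.7% of all genes called). Between the control vectors 4 genes of the set were then called, HES1, HES4, JAG1 and NOTCH2 without the first shNontarget array and HES1, JAG2, NOTCH2 and NOTCH3 without the second, among 45.2% and 46.3% of all genes.

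HES1, HEY1 and JAG1 had similar patterns over the 8 arrays. Pearson's r was 0.96 between HES1 and HEY1, 0.91 between JAG1 and HEY1 and 0.86 between HES1 and JAG1, as a description over 8 arrays that share the control and BEX2-knockdown groups and the spread within shNontarget. NOTCH2 correlated with JAG2 at 0.89 and with JAG1 at 0.85. HES4 and NRARP did not follow HES1, with r of 0.15 and 0.37. Of all tested genes, the pattern of HES1 was most like those of ESRRA (r = 0.987) and TMEM17 (0.985), that of HEY1 most like those of SAT2 and PYROXD1 (both 0.985), and CLN8 (0.994) was among the genes most like JAG1. For NOTCH2 these were WDR81 (0.995) and PRDM2 (0.991) and for NRARP HOXC8 (0.980) and NUDT9 (0.978). NOTCH1, which hardly varied, had LOC400419 (0.881) as the nearest named gene.

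The rest of the pathway was read from lists of 62 other genes, 53 of them tested. In BEX2-knockdown cells 2 were called higher and 5 lower, 13.2% of those tested against 12.9% of all genes. The share was thus that of the background, and the median log2 fold change was -0.08. NOTCH4, the fourth human receptor, read -4.20 and -4.39 with shControl, -3.78 and -3.92 with shNontarget, -3.55 and -3.45 with shBEX2-1 and -2.80 and -2.93 with shBEX2-2. It was the one receptor called, at 0.89 ± 0.24 (log2, SE; adjusted p = 0.0401, limma), and it missed the threshold with the replicate number as a block (adjusted p = 0.0542) and under 9 of the 19 other alternatives.

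None of the 9 genes that cut the receptor (FURIN, ADAM10, ADAM17 and the γ-secretase subunits) was called, with log2 fold changes from -0.56 for FURIN to 0.30 for APH1B. Of the 5 glycosylation genes, POGLUT1, which adds O-glucose to the receptor and is named KTELC1 on the array, fell by 0.72 ± 0.19 (adjusted p = 0.0372, limma). Of the 9 nuclear activators tested, the acetyltransferase CREBBP fell by 0.60 ± 0.12 (adjusted p = 0.0128, limma), and RBPJ itself, at 0.14, was not called (adjusted p = 0.517).

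TLE2, a Groucho corepressor that HES and HEY proteins recruit, had the largest fitted change of the lists. It read -2.61 and -2.28 with shControl, -3.10 and -2.98 with shNontarget, -5.86 and -5.09 with shBEX2-1 and -4.58 and -4.68 with shBEX2-2, and 1 of the BEX2-knockdown arrays was not well above background. It fell by 2.31 ± 0.32 (log2, SE; adjusted p = 0.00295, limma), and none of the other 11 corepressors was called.

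Of 12 genes of endocytosis and turnover, 2 ubiquitin ligases fell and 1 rose. DTX4, a Deltex protein that acts on receptors at the membrane, read -2.67 and -2.24 with shControl, -2.90 and -2.22 with shNontarget, -3.59 and -3.36 with shBEX2-1 and -4.03 and -4.10 with shBEX2-2, and fell by 1.26 ± 0.24 (adjusted p = 0.0105, limma). MIB1, which ubiquitinates the ligands in the cell that sends the signal, read -0.66 and -0.61 with shControl, -1.18 and -0.84 with shNontarget, -2.27 and -1.99 with shBEX2-1 and -1.47 and -1.53 with shBEX2-2, and fell by 0.99 ± 0.22 (adjusted p = 0.0182, limma). DTX2, a relative of DTX4, rose by 0.61 ± 0.14 (adjusted p = 0.0233). The groups did not overlap in these 3, which adds no support, since the 3 were picked by their calls on the same arrays. Over all genes this was so in 22.1%. The other HES, HEY and target genes, of which HES2, HES6 and SOX9 were bright enough to be tested, were at -0.37, -0.51 and -0.38, with none called. DLL3, DLL4, HES3, HES5, HES7, HEY2, HEYL, DTX1 and RBPJL were too dim to be tested.

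These calls changed with the arrays used. Of the 7 genes, TLE2 and DTX4 stayed called whichever array was left out, but after normexp background correction TLE2 was at -0.79 (adjusted p = 0.00483, limma) and DTX4 at -0.51 and no longer called (adjusted p = 0.0685). The count of 7, with 12.9% of all genes called, was 2 and 3 without the first and the second shControl array (6.58% and 6.84% of all genes) and 14 without the first shNontarget array (23.1%). It was 4 without the second shBEX2-1 array (8.33%) and 3 and 4 without the first and the second shBEX2-2 array (6.1% and 6.8%). With shControl as the only control 20 of the 53 genes were called, where 33.5% of all genes were, and with shNontarget as the only control 0, where 1.67% were.

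**Figure D5:**
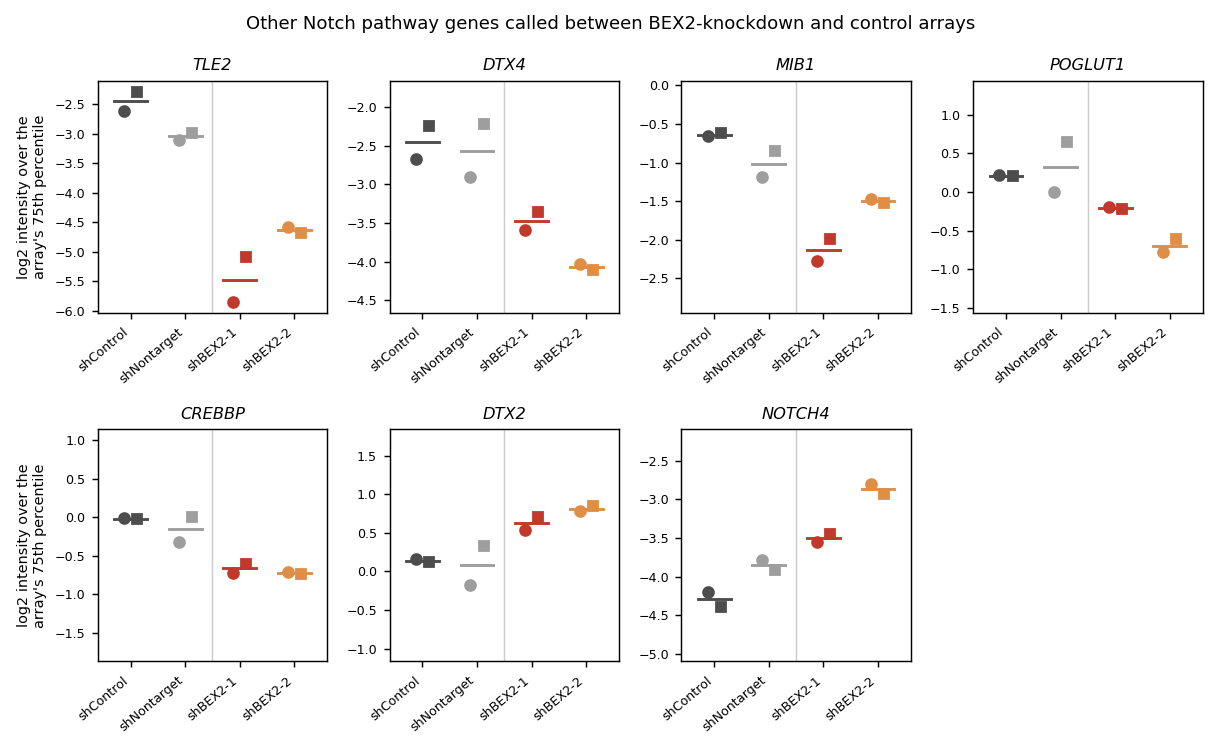
Level of the 7 other Notch pathway genes called between BEX2-knockdown and control cells (log2 intensity over the 75th percentile of the array) on each array, by vector, with circles for replicate 1, squares for replicate 2 and lines for means. The groups do not overlap in any panel, TLE2 shows the largest fitted fall, and DTX2 and NOTCH4 are higher in BEX2-knockdown cells.

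By subline, 1 of the 53 genes was called higher and 2 lower with shBEX2-1, and 2 higher and 5 lower with shBEX2-2, or 5.66% and 13.2% of those tested, against 7.03% and 9.67% of all genes. TLE2 fell by 2.73 with shBEX2-1, where 1 of 2 arrays was above background (adjusted p = 0.00722, limma) and fell by 1.89 with shBEX2-2 (adjusted p = 0.0117). No gene of these lists was called between shNontarget and shControl or between the sublines.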

How the data were processed

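HuCCT1 RNA labelled with Cy3 was hybridised to 8 arrays of one Agilent design. The authors deposited, per the file headers, the processed intensity of each spot from Agilent Feature Extraction 10.7.3.1, after background subtraction and detrending and with no scaling between arrays. Their table of the series held this intensity within 0.497%, with array medians of 36.7 to 68.7.

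Here log2 intensity was taken relative to each array's 75th percentile over non-control spots. Spots of a probe were averaged without non-uniformity outliers. Probes well above background on at least 4 arrays (in at least 0.5 of their spots) were kept, and the brightest stood for its gene. Groups were compared with limma 3.58.1 in R 4.3.3 (lmFit, eBayes with trend), as 4 against 4 arrays and in a model of 4 vectors, and a gene was called where p after Benjamini-Hochberg adjustment over all genes was under 0.05. The script was tested on simulated data. The rank product named in the methods was not run, as it permutes genes within arrays. Files were read and figures drawn in Python 3.11.15 (pandas 2.3.3, matplotlib 3.10.9).

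The genes, the pathway and marker lists and the tests were chosen with earlier results of these data known. Besides the 10 genes, the text names BEX2, listed genes called between the groups, the control vectors or the sublines, and for each of the 9 tested genes the 2 with the highest correlation. Some genes that these rules and lists name are not reported here. FURIN, APH1B, RBPJ, HES2, HES6 and SOX9 were added after their values were seen. The fits took no account of replicate numbers. As the file names place replicate 1 on one day and replicate 2 on another, a fit with the replicate number as a block was an alternative. File headers gave 1 scan date for all 8 arrays, so what these days stand for is unknown. Across genes, replicate differences of pairs of vectors correlated with r of 0.26, 0.13, 0.11, -0.063, 0.21 and 0.23. Alternatives covered the normalization, the background, the filter, the probes of a gene, the replicate block, the vector as a random block, each control vector alone, the samples in the fit, the methods' t-test and each array left out.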

Additional observations from a re-analysis of the deposited data

Results flagged for a closer look

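On 2 of the 18 sets of 4 arrays examined (9 genes, BEX2-knockdown and control), 1 array lay far from the others by Dixon's ratio, the gap to the nearest array over the whole range. Both were control sets with the second shNontarget array as the far one. JAG1 read 1.53 there against 0.63 to 0.76 on the other control arrays, a ratio of 0.855. HES4 read 5.15 there against 4.14 to 4.29, also a ratio of 0.855. Chance gives such a flag in about 1 of 20 sets.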

How the results depend on the processing

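The count of Notch genes called between BEX2-knockdown and control cells (3) rose to 5 with shControl as the only control, with 33.5% of all genes called. With shNontarget as the only control it was 2, HES1 and HEY1, with 1.67% of all genes called. For shBEX2-1 the count of 3 was 1 after normexp background correction, 0 with shControl as the only control and 0 with only the compared vectors in the fit. For shBEX2-2 the count of 2 was 1 with shControl as the only control. Between the sublines it was 2 with only their own arrays in the fit. With 1 array left out, the counts ran from 3 to 4 for BEX2-knockdown, 0 to 6 for shBEX2-1, 0 to 5 for shBEX2-2, 0 to 4 between the control vectors and 0 to 3 between the sublines. The count of other pathway genes (7) was 12 with the vector as a random block, 20 with shControl and 0 with shNontarget as the only control and 20 by the methods' t-test without adjustment, and 2 to 14 with 1 array left out. The share of all genes called between the groups ran from 6.1% to 23.1% with 1 array left out and was 26.5% by the methods' t-test without adjustment.

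In the comparison of the groups, HEY1 passed under all 20 alternatives, with log2 fold changes of -2.19 to -0.69. HES1 and JAG1 passed under 19 of 20. HES1 missed after normexp (-0.99, adjusted p = 0.0504, limma) and JAG1 with shNontarget as the only control (-1.31, adjusted p = 0.0669, limma). The alternatives were not equally strict. One used the table of the series, which held the same intensities within 0.497%, and another a t-test without adjustment. NOTCH1 changed sign with quantile normalization (0.0231), normexp (0.0328) and shControl as the only control (0.0855), and ran from -0.0754 to 0.0567 with 1 array left out. NOTCH3 changed sign with normexp (0.21) and with shNontarget as the only control (0.28), and ran from -0.33 to 0.15 with 1 array left out, and it had no value under the filter on all 8 arrays. HES4 changed sign with shNontarget as the only control (-0.085). The cause was not tested. With the replicate block, NOTCH4 was no longer called (adjusted p = 0.0542), and the calls were the same 3 genes between the groups (12% of all genes), the same 3 for shBEX2-1 and the same 2 for shBEX2-2, with adjusted p from 0.00596 to 0.019 for the 3 genes between the groups. The correlation within vectors behind the random block was estimated as -0.14. This block therefore did not widen the SE of HES1 between the groups, which was 0.40 against 0.41 in the main fit. Normexp with an offset of 50 moved the median of all genes to 0.09.

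BEX2 missed the threshold after normexp (-0.45, adjusted p = 0.0796). HES1 and HEY1 were dim in BEX2-knockdown cells, where an added offset shrinks log2 differences by construction. The normexp alternative also started from the mean signal of a spot and its local background instead of the processed intensity. The part of each in the smaller differences was not tested. With 2 arrays a vector, all subline results depend on the spread shared by the 8 arrays.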
